A study of Homo sapiens with 6 samples.

Results

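The miR-183, miR-96 and miR-182 cluster is a group of microRNAs (miRNAs) processed from 3 neighbouring hairpins. Its members here were the 4 mature miRNAs hsa-miR-183-5p, hsa-miR-183-3p, hsa-miR-96-5p and hsa-miR-182-5p, found by name among the 2588 mature miRNAs listed for each library. Of those listed, 902 to 1031 had a count in a given library. Small RNA was sequenced from 2 human respiratory epithelial lines, both labelled as wild type: A549, which derives from a lung carcinoma, and BEAS-2B, which derives from bronchial epithelium and was immortalised. For 48 h the cells were kept in low-serum medium that held 0, 1 or 5 ng/mL of TGF-β1, as a cell model of pulmonary fibrosis. Each of the 6 groups had 1 library. There was no replicate error for any value, and the intervals given are exact 95% intervals that cover counting error only.

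A mature miRNA guides a protein complex to messenger RNAs, and the bases 2 to 8 of the miRNA, the seed, do most of the target recognition. The names 5p and 3p mark the arms of a hairpin, of which usually a single arm is kept and the other degraded. The cluster is best known from the sensory cells of the inner ear and the retina, and miR-182 and miR-96 are studied in many carcinomas, where FOXO transcription factors are among their described targets. TGF-β1 drives epithelial cells toward a mesenchymal state, a change in which miRNAs of epithelial cells are often followed.

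The members and a relative outside the cluster are printed because the seeds of their 5p arms differ in few bases. The seed of miR-183-3p is unlike these. The mature sequences below are from RefSeq (GRCh38.p14), 5′ to 3′, with the seed in capitals.
hsa-miR-183-5p: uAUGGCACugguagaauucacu
hsa-miR-183-3p: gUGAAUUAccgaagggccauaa
hsa-miR-96-5p: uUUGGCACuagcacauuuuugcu
hsa-miR-182-5p: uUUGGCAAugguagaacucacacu
hsa-miR-1271-5p: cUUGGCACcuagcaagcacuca

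With positions counted from the 5′ end and the base of the first-named miRNA written first, the seeds of miR-183-5p and miR-96-5p differed by the substitution A2U. Those of miR-96-5p and miR-182-5p differed by C8A, and those of miR-183-5p and miR-182-5p by both A2U and C8A. Aligned from the 5′ end without gaps, miR-183-5p and miR-182-5p were identical at 18 of 22 positions, whereas miR-96-5p matched miR-183-5p at 13 of 22 and miR-182-5p at 12 of 23. Of the 2281 listed miRNAs with a RefSeq sequence, only miR-1271-5p had the seed of a member without belonging to the cluster. Its seed was that of miR-96-5p.

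The hairpins lie on the minus strand of chromosome 7 within 4.63 kb. MIR183 is at chr7:129774905-129775014, MIR96 at chr7:129774692-129774769 and MIR182 at chr7:129770383-129770492 (GRCh38.p14), with 135 bases between MIR183 and MIR96 and 4199 bases between MIR96 and MIR182. The GENCODE release 29 annotation shows no gene around them. The nearest protein-coding genes are NRF1, which ends 13.3 kb from MIR182, and UBE2H, which ends 55.7 kb from MIR183. MIR1271 lies on the plus strand of chromosome 5, within an intron of ARL10, and its 5p arm is at chr5:176367960-176367981.

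The libraries held from 633318 to 900424 counts. The most abundant miRNA, miR-21-5p, took 35.4% of the BEAS-2B control library and from 47.6% to 57.2% of the other 5, and the scaling factor of that control, 1.32, stood apart from the others (0.829 to 1.02). Every ratio to the BEAS-2B control rests on this library. Of the 7 miRNAs listed as epithelial markers, miR-200b-3p was the most counted (139 to 356 counts per library), and miR-205-5p was at or near 0 in both lines (0 to 2 counts). miR-141-3p had 1 to 8. The 7 together summed to 247, 401 and 350 normalised counts in A549 at 0, 1 and 5 ng/mL and to 363, 346 and 325 in BEAS-2B. Among 9 markers of blood, endothelium, liver and muscle, miR-223-3p and miR-133a-3p were at 0 in every library. The endothelial miRNA miR-126-3p made up nearly all reads of that list, with 1003 to 1280 counts in A549 and 197 to 393 in BEAS-2B, and its part in any result was not tested.

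miR-182-5p was the most abundant member in every library. Its counts in A549 were 2743, 2500 and 1925 at 0, 1 and 5 ng/mL, and in BEAS-2B 773, 454 and 560. After normalisation by the trimmed mean of M-values (TMM), which adjusts for library size and composition, the A549 libraries had 2854, 2510 and 2240 and the BEAS-2B libraries 595, 526 and 549.01. All 3 A549 libraries were above all 3 BEAS-2B libraries, as they were for 32% of the 397 miRNAs with a mean normalised count of at least 10. By abundance miR-182-5p ranked from 28th to 32nd of all miRNAs in A549 and from 69th to 72nd in BEAS-2B.

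miR-183-5p had 788, 824 and 730 counts in A549 and 203, 124 and 144 in BEAS-2B. Normalised, the A549 libraries had 820, 827 and 850 and the BEAS-2B libraries 156, 144 and 141, again without overlap between the lines. miR-96-5p had 555, 577 and 552 counts in A549 and 158, 101 and 158 in BEAS-2B. Normalised, it had 578, 579 and 642 in the A549 libraries against 122, 117 and 155 in those of BEAS-2B. The miRNA thus ranked below miR-183-5p in 5 of the 6 libraries. In BEAS-2B at 5 ng/mL it was the more counted, with 1.10 reads per read of miR-183-5p (0.870 to 1.38), an interval that includes equality. At 1 ng/mL in BEAS-2B the interval of that ratio also included equality (0.815, 0.620 to 1.07), and in the other 4 libraries it lay below 1.

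**Figure D1:**
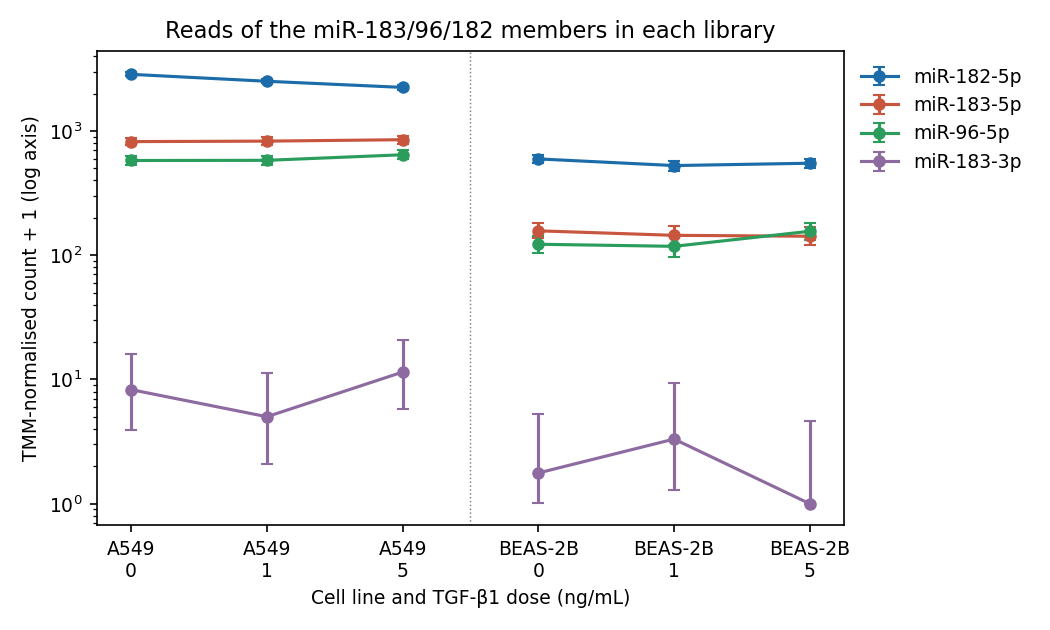
TMM-normalised counts plus 1 (log axis) of the 4 members in each of the 6 libraries, by cell line and TGF-β1 dose; points are single libraries and bars are exact 95% counting intervals. The 3 abundant members lie higher in all A549 libraries (578 to 2854) than in all BEAS-2B libraries (117 to 595), and miR-183-3p stays at 10.5 or below.

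The opposite arms were rare in both lines. The fourth member, miR-183-3p, had 7, 4 and 9 counts in A549 and 1, 2 and 0 in BEAS-2B, where the 0 allows up to 3 counts. It made up 0.847% (0.518 to 1.30) of the reads of its hairpin in A549 and 0.633% (0.131 to 1.84) in BEAS-2B. The 3p arm of MIR182, which is outside the 4 members, took 0.541% (0.385 to 0.739) and 0.612% (0.306 to 1.09). That of MIR96 had 1 of 1685 reads in A549 and 0 of 417 in BEAS-2B, where the interval of the share ended at 0.881%. In both lines nearly all reads of each hairpin were therefore of the 5p arm, and the intervals of the arm shares overlapped between the lines.

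The first comparison asked whether the cluster differs between the 2 lines. The 4 members together took 0.518%, 0.434% and 0.508% of the A549 libraries and 0.154%, 0.104% and 0.112% of the BEAS-2B libraries. On the normalised scale the sum was 4259, 3921 and 3743 in A549 against 873, 788 and 845 in BEAS-2B. The log2 ratio of A549 to BEAS-2B was 2.28 (2.19 to 2.38) without TGF-β1, 2.31 (2.20 to 2.43) with 1 ng/mL and 2.15 (2.04 to 2.26) with 5 ng/mL. Since miR-182-5p supplied most reads of the sum, the members were also compared singly.

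For miR-182-5p the log2 ratio of A549 to BEAS-2B was 2.26, 2.25 and 2.03 at 0, 1 and 5 ng/mL. For miR-183-5p it was 2.39, 2.52 and 2.58, and for miR-96-5p 2.24, 2.30 and 2.05. The study selected treated against control by a fold of at least 1.4 and a normalised data value (ND) of at least 8. Here ND was taken as the log2 of the normalised count plus 1 and was required in the greater of the libraries compared, and the same thresholds were applied between the lines. These 3 members passed them at each dose, but miR-183-5p and miR-96-5p met the ND only through A549. Their ND in BEAS-2B was 7.15 to 7.30 and 6.88 to 7.28, respectively. miR-183-3p did not reach that ND. Of all miRNAs that met the ND criterion, 40.7% were higher in A549 by these criteria at 0 ng/mL, 38.5% at 1 ng/mL and 38.4% at 5 ng/mL. Passing them was therefore common among abundant miRNAs.

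A model of line and dose over all 6 libraries (edgeR quasi-likelihood test, Benjamini-Hochberg adjustment over 397 miRNAs) took the departure of the libraries from additive effects as its spread, which is no replicate error. By it miR-183-5p was 5.66-fold higher in A549 (log2 2.50, adjusted p = 0.000117). miR-96-5p was 4.60-fold higher (log2 2.20, adjusted p = 0.000288) and miR-182-5p 4.54-fold higher (log2 2.18, adjusted p = 0.000117). Among the 397 miRNAs, 28.7% were higher and 18.4% lower in A549 at an adjusted p below 0.05. Ordered by p, miR-183-5p, miR-182-5p and miR-96-5p stood at places 14, 15 and 20, and ordered by increase in A549 at places 36, 47 and 45. All 3 A549 libraries lay above all 3 BEAS-2B libraries for 32% of the 397 miRNAs, these 3 among them, and below them for 23.4%.

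The line difference did not rest on a single dose. Without the libraries at 0 ng/mL, which include the BEAS-2B control that stood apart, the log2 differences in edgeR were 2.14 for miR-182-5p (adjusted p = 0.00345), 2.56 for miR-183-5p (adjusted p = 0.00317) and 2.18 for miR-96-5p (adjusted p = 0.00431). The ranges of the lines did not overlap for any of the 4 members under any of the 5 scalings that set a common scale for both lines. For miR-183-3p this was within counting error at 1 ng/mL, with 4 counts in A549 against 2 in BEAS-2B (log2 ratio 0.60, -2.01 to 4.26). The share of 32% given above is for TMM and the 397 miRNAs, which leave out miR-183-3p. No such share is given for the other scalings. miR-183-3p fell below the minimum mean of 10 normalised counts and was not in the model. Its 20 counts in A549 against 3 in BEAS-2B gave a ratio of 7.54 (2.24 to 39.6) between the summed libraries. With no minimum, over 1556 miRNAs, its log2 difference in edgeR was 2.74 (adjusted p = 0.0156). That value rests on at most 9 counts per library. The share of the 1556 that was called is not given here, so this p has no background beside it.

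**Figure D2:**
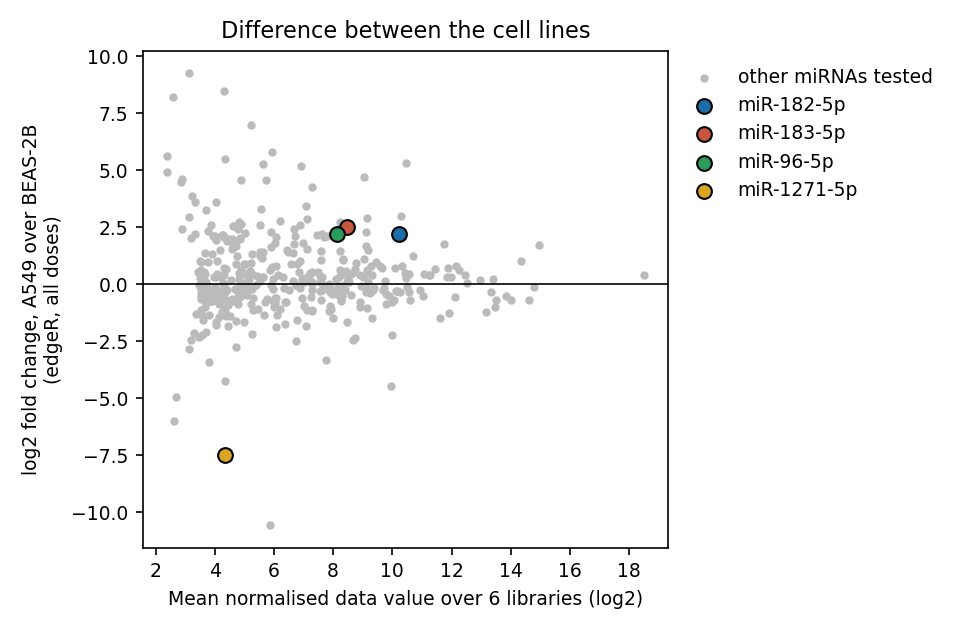
Log2 fold change of A549 over BEAS-2B (edgeR, all doses, vertical axis) against the mean ND over the 6 libraries (horizontal axis) for the 397 miRNAs tested; each point is 1 miRNA. The 3 tested members lie close together at 2.18 to 2.50, and miR-1271-5p lies at -7.50.

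miR-1271-5p, the relative with the seed of miR-96-5p, had the opposite distribution. It had 1, 0 and 2 counts in A549 and 291, 202 and 197 in BEAS-2B, or 224, 234 and 193 normalised counts in BEAS-2B. The ND of miR-1271-5p was at most 7.88, below the 8 that the criteria between the lines require, so it could not pass them. At 1 ng/mL, where no read was counted in A549, it was at least 77.6-fold lower there if the 0 is replaced by its limit of 3 counts and the 202 counts of BEAS-2B are taken as they are. The exact interval of that log2 ratio, which also covers the error of the 202, ended at -5.97. At 5 ng/mL the log2 ratio was -5.87 with an interval of -9.43 to -4.50. In edgeR its log2 difference was -7.50 (adjusted p = 6.19e-05), the second lowest of the 397, a fitted value that depends on how the near absence in A549 is treated.

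The reads carrying this shared seed differed less between the lines than miR-96-5p itself, whose log2 ratio without TGF-β1 was 2.24 (1.99 to 2.51). miR-96-5p and miR-1271-5p together had 579, 579 and 645 normalised counts in A549 and 345, 351 and 348 in BEAS-2B. The pool was 1.67-fold higher in A549 at 0 ng/mL (log2 0.74, 0.56 to 0.93), 1.65-fold at 1 ng/mL (log2 0.72, 0.52 to 0.93) and 1.85-fold at 5 ng/mL (log2 0.89, 0.69 to 1.09). In BEAS-2B, miR-1271-5p made up 64.8% (60.2 to 69.2) of the pool without TGF-β1, 66.7% (61.1 to 72.0) with 1 ng/mL and 55.5% (50.2 to 60.7) with 5 ng/mL. In A549 it made up 0.180%, 0% and 0.361%, with intervals that ended at 0.998%, 0.637% and 1.30%. At no dose did the interval of the pool reach that of miR-96-5p. The pool holds the same miR-96-5p reads, and adding a miRNA nearly absent from A549 must lower the ratio. The separation of the intervals therefore describes the sum and is no separate test. Reads were taken as counted, although the yield of a sequencing library differs between miRNA sequences, so a sum over miRNAs is a sum of reads and not of molecules.

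**Figure D3:**
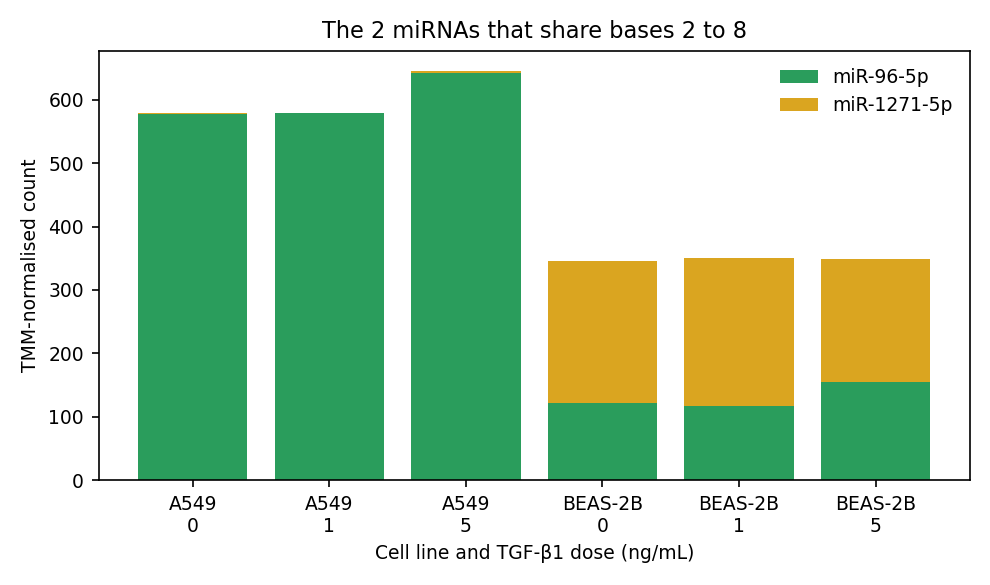
Stacked TMM-normalised counts of miR-96-5p and miR-1271-5p, the miRNAs with the same bases 2 to 8, in each of the 6 libraries; bars start at 0 and each is 1 library. The sums are 579 to 645 in A549, almost wholly miR-96-5p, and 345 to 351 in BEAS-2B, where miR-1271-5p is the larger part.

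The second comparison asked whether TGF-β1 changed the expression of the cluster. In A549 the log2 ratio of the summed members to the untreated library was -0.12 (-0.18 to -0.06) for 1 ng/mL and -0.19 (-0.25 to -0.12) for 5 ng/mL. In BEAS-2B it was -0.15 (-0.29 to -0.01) and -0.05 (-0.18 to 0.08), respectively. None of the 4 members passed the criteria in either line at either dose, nor between 5 and 1 ng/mL. In A549, miR-182-5p, miR-183-5p and miR-96-5p met the ND criterion, but in BEAS-2B only miR-182-5p did, so the other 3 members could not pass there whatever their fold. Among all miRNAs that met the ND criterion, 48.9% passed in either direction in A549 at 1 ng/mL and 53.2% at 5 ng/mL, and 16.9% passed between the doses. In BEAS-2B these shares were 29.2%, 36% and 6.61%.

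Of the 3 abundant members, miR-182-5p had the lowest value in A549, where the log2 ratio was -0.19 (-0.26 to -0.11) for 1 ng/mL and -0.35 (-0.43 to -0.26) for 5 ng/mL, the latter being 1.27-fold lower. In BEAS-2B it was -0.18 (-0.35 to -0.01) and -0.11 (-0.27 to 0.04). All 4 of these ratios were below 0 and inside the 1.4-fold criterion. They stayed below 0 under every scaling and pseudocount tried, from -0.72 to -0.19 in A549 and from -0.53 to -0.11 in BEAS-2B at 5 ng/mL. Upper-quartile scaling in A549 at 5 ng/mL and total-count scaling in BEAS-2B at both doses put miR-182-5p past the criteria, and these scalings also moved the median of all miRNAs downward.

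miR-183-5p had log2 ratios near 0 in A549, 0.01 (-0.13 to 0.16) for 1 ng/mL and 0.05 (-0.10 to 0.20) for 5 ng/mL. In BEAS-2B they were -0.12 (-0.46 to 0.21) and -0.14 (-0.46 to 0.17). miR-96-5p had log2 ratios of 0.00 (-0.17 to 0.18) and 0.15 (-0.02 to 0.33) in A549. In BEAS-2B they were -0.06 (-0.43 to 0.31) and 0.35 (0.02 to 0.68), the latter being the highest value among the 3 abundant members. The signs for miR-183-5p in A549 and for miR-96-5p in both lines turned with the scaling, so no direction is given for these. In BEAS-2B the ratio of miR-183-5p stayed below 0 under every scaling and pseudocount tried (-0.55 to -0.06 with 1 ng/mL and -0.55 to -0.14 with 5 ng/mL), although both main intervals included 0. For miR-183-3p, with at most 9 counts per library, no difference was detectable at this depth.

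**Figure D4:**
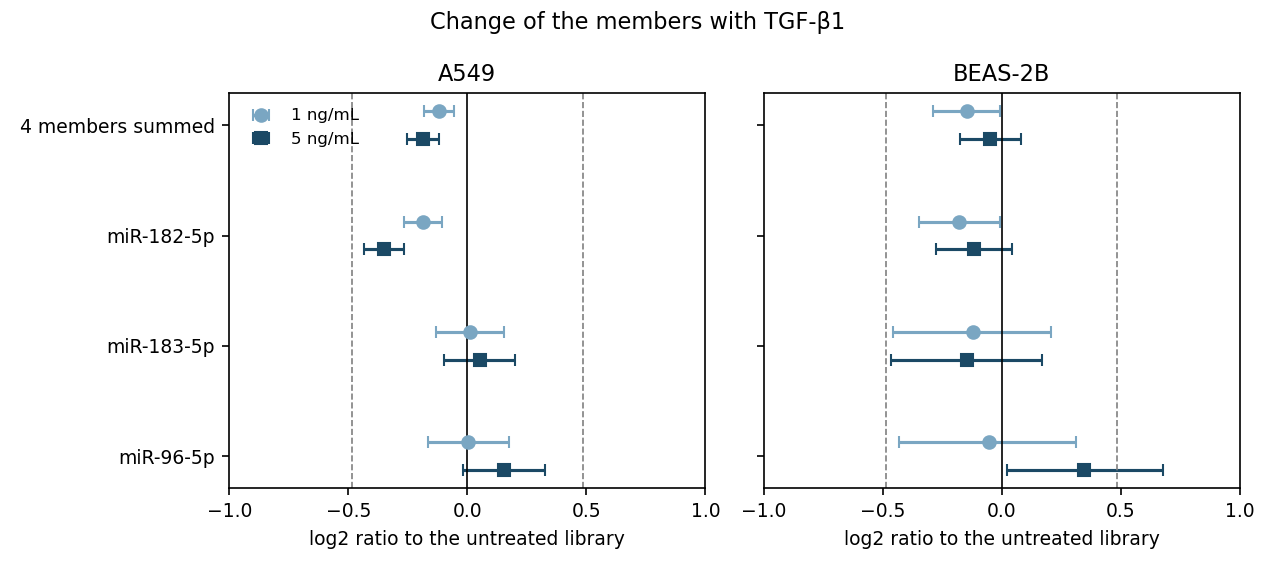
Log2 ratio to the untreated library of the same line (horizontal axis) for the summed cluster and its 3 abundant members at 1 and 5 ng/mL TGF-β1, in A549 (left) and BEAS-2B (right); points are ratios of single libraries, bars exact 95% counting intervals and dashed lines the 1.4-fold criterion. All points lie inside the dashed lines, with miR-182-5p in A549 the lowest at -0.35 and miR-96-5p in BEAS-2B the highest at 0.35.

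With the lines taken as blocks, no tested member differed between 5 ng/mL and control in edgeR (adjusted p = 0.613 for miR-182-5p, 0.940 for miR-183-5p and 0.636 for miR-96-5p), nor between 1 ng/mL and control (0.747, 0.976 and 0.976). Of the 397 miRNAs, 2.02% were called at 5 ng/mL (8 adjusted, 63 at an unadjusted p below 0.05, and 10 adjusted by DESeq2) and 1.51% at 1 ng/mL (6, 53 and 8). The test of a different response in the lines gave log2 differences of -0.12 for miR-182-5p, 0.17 for miR-183-5p and -0.08 for miR-96-5p (adjusted p = 0.875, 0.827 and 0.934 in edgeR). There, 4.03% of the 397 were called (16 adjusted, 71 unadjusted, and 8 adjusted by DESeq2). That test takes the spread between the treated libraries of a line and assumes the lone control to vary likewise. A p above the threshold in these 6 libraries does not show that the levels were equal.

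Ratios between members within a library need no scaling between libraries. miR-96-5p had 0.202 (0.184 to 0.222), 0.231 (0.210 to 0.253) and 0.287 (0.260 to 0.315) reads per read of miR-182-5p in A549 at 0, 1 and 5 ng/mL. In BEAS-2B the ratio was 0.204 (0.171 to 0.243), 0.222 (0.178 to 0.277) and 0.282 (0.235 to 0.337). At each dose the lines differed by at most 0.05 on the log2 scale, although each miRNA was over 4-fold more abundant in A549. The intervals of these differences were -0.30 to 0.27, -0.29 to 0.41 and -0.27 to 0.32 at 0, 1 and 5 ng/mL. From 0 to 5 ng/mL the log2 change of the ratio was 0.50 (0.31 to 0.70) in A549 and 0.47 (0.10 to 0.83) in BEAS-2B. From 0 to 1 ng/mL it was 0.19 (0.00 to 0.38) and 0.12 (-0.29 to 0.53), the latter within counting error.

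The ratio of miR-183-5p to miR-182-5p was 0.287, 0.330 and 0.379 in A549, and its log2 change at 5 ng/mL was 0.40 (0.23 to 0.57). In BEAS-2B it was 0.263, 0.273 and 0.257, with a change of -0.03 (-0.39 to 0.32). At 5 ng/mL this ratio was higher in A549 than in BEAS-2B by 0.56 on the log2 scale (0.26 to 0.86), whereas without TGF-β1 the interval of the difference included 0 (0.13, -0.12 to 0.39). Accordingly, miR-182-5p took 67.0% (65.6 to 68.5) of the reads of the 4 members in untreated A549, 64.0% (62.5 to 65.5) with 1 ng/mL and 59.9% (58.1 to 61.6) with 5 ng/mL. In BEAS-2B its share was 68.1% (65.3 to 70.8), 66.7% (63.0 to 70.2) and 65.0% (61.7 to 68.2), whose intervals overlapped. The share of miR-96-5p was 13.6%, 14.8% and 17.2% in the A549 libraries, beside 13.9%, 14.8% and 18.3% in BEAS-2B.

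**Figure D5:**
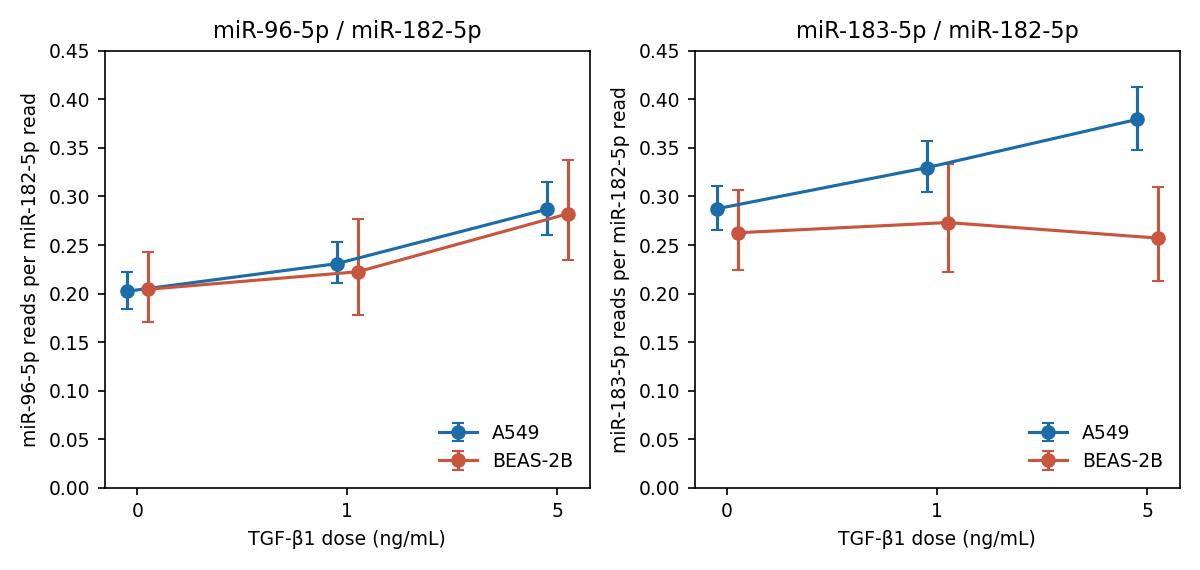
Reads of miR-96-5p (left) and of miR-183-5p (right) per read of miR-182-5p in the same library (vertical axis, from 0) against the TGF-β1 dose, for A549 and BEAS-2B; points are single libraries and bars exact 95% counting intervals. The left ratio goes from 0.202 to 0.287 in A549 and from 0.204 to 0.282 in BEAS-2B, and the right one from 0.287 to 0.379 in A549 and from 0.263 to 0.257 in BEAS-2B.

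The line difference was also read for other miRNAs known from epithelial cells. Of the 7 listed, 4 were abundant enough for the edgeR model and 1 of these was called. This was miR-200c-3p, a repressor of the ZEB factors, which was higher in A549 (log2 2.09, adjusted p = 0.00282), with 36, 38 and 35 counts against 11, 6 and 12. This 1 of 4 stands beside 28.7% of all 397 miRNAs called higher in A549. The median log2 difference of the 4 was -0.19. edgeR called no member of the list for either dose or for a different response in the lines. By the fold and ND criteria, miR-200b-3p was higher than in the control in A549 at 1 ng/mL (log2 ratio 0.91) and lower in untreated A549 than in untreated BEAS-2B (-0.92).

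The miRNAs encoded nearest to the cluster on the long arm of chromosome 7 were also examined. Of 10 arms listed, 8 had a count and 5 were tested. miR-129-5p and miR-29b-3p, both of which also have a copy elsewhere in the genome, were called higher in A549 by edgeR (log2 3.85, adjusted p = 0.00550; log2 1.00, adjusted p = 0.0423), and miR-335-5p lower (log2 -1.89, adjusted p = 0.00455). These 2 higher and 1 lower of 5 stand beside the 28.7% and 18.4% of all 397. edgeR called none of the 5 for a dose. By the fold and ND criteria miR-335-3p was below its control level in A549 at 5 ng/mL (log2 ratio -0.63) and in BEAS-2B at both doses (-2.73 and -2.76), and miR-29a-3p in BEAS-2B at 1 ng/mL (-0.62). At 5 ng/mL the log2 ratios of miR-335-5p, miR-335-3p, miR-29a-3p and miR-29b-3p were -0.64, -0.63, -0.47 and -0.45 in A549, beside -0.19 for the summed cluster. In BEAS-2B they were -1.29, -2.76, -0.39 and -0.33, beside -0.05. The fifth, miR-129-5p, was higher at 5 ng/mL than in the control in A549 (log2 ratio 2.60, 1.69 to 3.92). Its counts there were 9 in the control and 53 at 5 ng/mL. In BEAS-2B it had 1 to 5 counts per library and is given no ratio. The medians over the 397 miRNAs were 0.08 in A549 and 0.05 in BEAS-2B.

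The miRNAs most like the summed cluster over the 6 libraries, by Pearson's r of the ND among the 154 that reached an ND of 8 somewhere, were miR-10b-5p (1.00), miR-194-5p (0.998), miR-192-5p (0.995), miR-9-5p (0.995) and miR-215-5p (0.992). The 6 points formed a cluster for each line, so r reflects mainly the line difference and no p is given. Each of these miRNAs differed more between the lines than the cluster did. Untreated A549 had 424 normalised counts of miR-10b-5p against 3.08 in BEAS-2B, and 3521 of miR-194-5p against 132. By the 4 log2 ratios to the own control, the nearest was miR-106b-3p (distance 0.137), followed by miR-484 (0.227), miR-10b-5p (0.261), miR-339-3p (0.267) and miR-28-3p (0.284). The place of miR-10b-5p is not informative, since it had about 3 normalised counts in each BEAS-2B library, and the interval of its BEAS-2B log2 ratio at 5 ng/mL ran from -2.84 to 2.50. The ratios of each line share a control library.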

How the data were processed

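For each mature miRNA the authors deposited an unnormalised read count, a whole number, obtained from NEBNext small RNA libraries of total RNA. The submitters' processing notes name Bowtie2 and bedtools. Genome build, miRNA annotation and strand handling were not given in the sources used here. Molecular identifiers were not mentioned, so intervals and limits for a count of 0 (3 counts, or 3.33 to 4.74 CPM) cover counting error only.

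Counts were normalised by TMM (edgeR 4.0.16, R 4.3.3) over the 6 libraries and multiplied by the mean effective size of 749498. Log2 ratios used a pseudocount of 1, with exact Clopper-Pearson intervals of the conditional share. Tests across the 397 miRNAs with a mean normalised count of at least 10 were edgeR quasi-likelihood tests with Benjamini-Hochberg adjustment. They were fitted on line plus dose, and on line by treatment, each with 2 residual degrees of freedom. The tests were also run on simulated data with the same assumed spread for every miRNA, which cannot check the spread in libraries without replicates. DESeq2 1.42.0 was an alternative.

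Members and lists were chosen with earlier results of these data known. The naming rule comprised the 4 members, the other arms, miRNAs with a member's seed, 3 lists (epithelial, other cell types, chromosome 7 neighbours) and the 5 miRNAs most like the cluster by each of 2 measures. Sequences came from RefSeq and gene positions from GENCODE, both on GRCh38.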

Additional observations from a re-analysis of the deposited data

Results flagged for a closer look

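Among the miRNAs named, miR-335-3p, a neighbour of the cluster on chromosome 7, differed between the lines in its response to TGF-β1 by a test of the difference itself (interaction log2 2.29, adjusted p = 0.00231, edgeR quasi-likelihood test, A549 minus BEAS-2B). Its log2 ratio to the control at 5 ng/mL was -0.63 in A549 and -2.76 in BEAS-2B. Both BEAS-2B ratios rest on the control library whose scaling factor stood apart. No member of the cluster met this rule.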

How the results depend on the processing

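With 1 library per group, no replicate could be left out. There were also no replicates to pair between groups. The dose tests took the cell lines as blocks. The line difference of miR-182-5p, miR-183-5p and miR-96-5p stayed past an adjusted p of 0.05 under all 8 alternatives (log2 1.93 to 2.18, 2.25 to 2.56 and 1.95 to 2.20; highest adjusted p 0.00987, 0.00924 and 0.0153, edgeR or DESeq2), and no called value changed direction. No dose or interaction test of these members passed under any alternative. Counts of 101 to 203 for miR-183-5p and miR-96-5p in BEAS-2B, and of under 10 for miR-183-3p, limit what could be seen there. Of the main values recomputed under alternatives, 178 moved by less than their interval or by under 1.5 times, and 37 moved by more.

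Total-count scaling shifted the median log2 ratio of all 397 miRNAs in BEAS-2B to -0.37 at 1 ng/mL and -0.33 at 5 ng/mL (0.04 and 0.05 with TMM), and upper-quartile scaling shifted it in A549 to -0.24 and -0.29 (0.02 and 0.08 with TMM). The summed cluster in A549 at 1 ng/mL was then -0.21 with DESeq2 size factors, -0.26 with total counts, -0.39 with the upper quartile and -0.18 with TMM within lines. At 5 ng/mL in A549 it was -0.28, -0.030, -0.56 and -0.26, respectively, and -0.26 with TMM without miR-21-5p. Between 5 and 1 ng/mL in A549 it was 0.23 with total counts and -0.17 with the upper quartile. In BEAS-2B total counts gave -0.57 for 1 ng/mL and -0.46 for 5 ng/mL. The line difference of the sum was 1.75 at 0 ng/mL and 2.06 at 1 ng/mL with total counts, and 2.00 at 1 ng/mL and 1.86 at 5 ng/mL with the upper quartile. The cause of these shifts was not tested.

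The number of members past the treatment criteria became 1 (miR-182-5p) in A549 at 5 ng/mL with the upper quartile and in BEAS-2B at 1 and at 5 ng/mL with total counts. Requiring the ND in both libraries left 1 member past the line criteria at each dose. Over all miRNAs, the line fit called 89 with a minimum mean of 100, where fewer were tested, and 77 without the libraries at 1 ng/mL, against 187. The 5 ng/mL test called 1 with total counts, 17 with no minimum and 16 for treated against control, against 8. The 1 ng/mL test called 1, 14 and 16, respectively, and 3 with a minimum of 100, against 6. The interaction called 8 with DESeq2, 32 with its size factors, 3 with total counts, 25 with no minimum and 8 with a minimum of 100, against 16.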
